A study of Mus musculus with 36 samples.

Results

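The data described here are the mRNA levels of 10 genes that restrain or shape inflammatory signalling in mouse bone marrow-derived macrophages. The genes were taken by symbol from a list, and all 10 were found among the 36528 genes of the deposited table. They are Tnfaip3, Tnip1, Tnip2, Tnip3, Zc3h12a, Zfp36, Zfp36l1, Zfp36l2, Elavl1 and Khsrp. Polyadenylated RNA was sequenced from macrophages of 6 mice, 3 carrying floxed Cop1 alleles (labelled Loxp, called Cop1-floxed here) and 3 with wild-type Cop1. Cop1 encodes a ubiquitin ligase subunit. Every mouse, wild type included, carried Rosa26-CreERT2, a tamoxifen-inducible Cre recombinase expressed from the Rosa26 locus. The cells were studied at day 7 of differentiation, either untreated (T0) or after 100 ng/ml lipopolysaccharide (LPS), the bacterial cell wall component sensed by Toll-like receptor 4, at 5 times labelled T2.5, T4, T6, T9 or T13. The design held 12 groups of 3 libraries, named below by genotype, time and mouse number, and each mouse of a genotype was sampled once at each of the 6 times. The sources used here do not give the unit of time, the deleted part of Cop1 or whether and when tamoxifen was added, and LPS treatment and time in culture cannot be told apart. The p-values of the main test measure the spread between mice within a group. That spread was estimated over all 12 groups together, with no term for the mouse.

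The 10 genes encode proteins from 2 layers of control. A20, encoded by Tnfaip3, edits ubiquitin chains on signalling proteins between Toll-like or tumour necrosis factor receptors and NF-kB, and the ABIN proteins encoded by Tnip1, Tnip2 and Tnip3 bind ubiquitin and A20. Tristetraprolin (Zfp36) and its relatives Zfp36l1 and Zfp36l2 bind AU-rich elements in the 3′ untranslated regions of cytokine mRNAs and recruit deadenylases, Regnase-1 (Zc3h12a) cuts stem-loops in such mRNAs, KSRP (Khsrp) also promotes decay, and HuR (Elavl1) binds AU-rich sequence and stabilises mRNAs.

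The libraries held 24069541 to 40298009 uniquely aligned reads, and the lowest count of any of the 10 genes in a library was 300. Cop1 itself was lower in the Cop1-floxed libraries at 6 of 6 times, with no overlap at any time. It stood at 5.37 to 8.71 CPM in Cop1-floxed and 9.92 to 15.1 CPM in wild-type libraries. CPM here are counts scaled to library sizes adjusted by TMM, a scaling described below. The floxed cells still held Cop1 reads, and a mixture of cells with and without the deletion cannot be told apart from remaining RNA of the altered allele. The Cop1-floxed T9 library of mouse 2 detected 15045 genes, against 17622 to 19693 in the other libraries. The libraries of wild-type mouse 2 held both Xist, at 25.6 to 89.8 CPM, and Y-linked RNA, at 38.5 to 67.6 CPM, whereas Xist was below 1 CPM in the other mice. Whether these libraries hold RNA of more than 1 animal was not tested. They are counted here as 1 mouse, and without them 5 of the 9 genotype calls described below remained. All 14 measured macrophage markers were present in every group, with a summed level of 22099 to 35487 CPM in Cop1-floxed and 20865 to 29795 CPM in wild-type libraries. These are bulk libraries, in which fewer cells of a type and less RNA per cell cannot be told apart.

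The upstream sequence of 9 of the 10 genes was read from the RefSeq promoter table of GRCm38.p6, and 250 bases before the start were searched on both strands for 5 motifs. The NF-kB consensus matched in 3 of these 9 genes, Tnfaip3, Tnip1 and Tnip3, and in 3.9% of all 32851 windows of this length. The A20 gene Tnfaip3 lies on the minus strand at chr10:19000910-19015410, and its matches begin 125 and 12 bases before the start. Tnip1 (chr11:54910787-54962956, minus strand) has 3 overlapping matches on 1 stretch, and Tnip3 (chr6:65590398-65634040, plus strand) has 1 match that begins 54 bases before the start. The listed start of Tnip1 lies inside the stated locus, so its window overlaps the end of that locus. Zfp36 (chr7:28376784-28379228, minus strand) holds a CArG box, the serum response factor motif, 58 bases before the start, a motif found in 1.47% of windows. These 4 windows are shown because they belong to the genes with the largest LPS rises described below, and capitals mark the NF-kB matches of the first 3 and the CArG box of the last. The windows are chr10:19015411-19015660, chr11:54962941-54963190, chr6:65590148-65590397 and chr7:28379229-28379478, each written 5′ to 3′ on the strand of its gene.
Tnfaip3: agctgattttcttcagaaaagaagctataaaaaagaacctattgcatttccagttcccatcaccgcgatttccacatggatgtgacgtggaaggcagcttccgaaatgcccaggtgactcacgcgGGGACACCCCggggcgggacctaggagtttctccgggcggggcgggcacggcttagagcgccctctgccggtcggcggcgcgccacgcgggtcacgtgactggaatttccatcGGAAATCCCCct
Tnip1: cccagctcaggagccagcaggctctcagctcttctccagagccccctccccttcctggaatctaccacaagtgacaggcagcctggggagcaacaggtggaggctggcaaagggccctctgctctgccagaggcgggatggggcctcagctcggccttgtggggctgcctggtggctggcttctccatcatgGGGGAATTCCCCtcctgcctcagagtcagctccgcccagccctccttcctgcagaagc
Tnip3: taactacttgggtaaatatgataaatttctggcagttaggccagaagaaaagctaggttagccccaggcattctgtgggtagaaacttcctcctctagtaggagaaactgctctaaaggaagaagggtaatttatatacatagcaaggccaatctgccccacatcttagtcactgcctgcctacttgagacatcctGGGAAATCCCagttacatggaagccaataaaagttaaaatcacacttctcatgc
Zfp36: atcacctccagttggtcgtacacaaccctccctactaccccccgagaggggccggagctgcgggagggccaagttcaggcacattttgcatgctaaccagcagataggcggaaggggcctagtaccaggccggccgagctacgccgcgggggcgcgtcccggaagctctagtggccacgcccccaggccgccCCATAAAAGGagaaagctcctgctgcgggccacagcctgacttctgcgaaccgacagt
The AP-1 motif TGANTCA was found upstream of Tnfaip3 and Zfp36l1, 136 and 129 bases before the start, and in 6.75% of windows. The CRE motif TGACGT was found upstream of Tnfaip3 alone among the 9 genes, and in 6.47% of windows, and the C/EBP motif TTGCNNAA in 0 of the 9 genes and 9.56% of windows. A second listed start of Tnfaip3, with the window chr10:19011964-19012213, held none of the 5 motifs. A match is a description of letters in this window, and a window without one says nothing of the factor.

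Several of the decay regulators carry the AU-rich heptamer TATTTAT, the core of the element that tristetraprolin binds, in their own 3′ untranslated regions. In the GENCODE M21 transcript with the longest such region, the heptamer occurred 3 times each in Zfp36, Zfp36l1 and Zfp36l2, 1 time in Tnip3 and 8 times, in overlapping runs, in Elavl1. None was found in Tnip1, Tnip2, Zc3h12a or Khsrp. Of 21005 genes with such a region, 27.6% held the heptamer, and the share rose with length, at 18.2% for 500 to 1000 bases, 33.3% for 1000 to 2000 bases and 50.8% for 2000 to 4000 bases. The region of Zfp36 is 774 bases long. Its sites are shown because Zfp36 encodes tristetraprolin itself, as 25 bases with the heptamer in capitals, named by the position of the first base after the stop codon.
Zfp36 at 566: tgggcccttTATTTATgacgacttt
Zfp36 at 581: tgacgacttTATTTATtgtattaag
Zfp36 at 606: attttatagTATTTATatatattgg

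In untreated cells the most abundant members per length were the tristetraprolin family genes Zfp36l2 and Zfp36. On the deposited RPKM scale, which divides by gene length, Zfp36l2 stood at 93.4 ± 3.94 and Zfp36 at 84.2 ± 8.69 RPKM in Cop1-floxed T0 cells, with overlapping libraries, and Zfp36 at 96.3 ± 9.56 and Zfp36l2 at 72.5 ± 16.8 RPKM in wild-type T0 cells, without overlap (SD, n = 3 each). Tnip1 followed at 23.9 ± 2.34 RPKM in Cop1-floxed and 19.4 ± 2.97 RPKM in wild-type T0 cells. The other 7 genes lay between 5.34 and 17.0 RPKM in Cop1-floxed and between 5.32 and 15.2 RPKM in wild-type T0 cells, and several neighbours in this order overlapped. Tnfaip3 was among these low genes before LPS, at 11.8 ± 1.60 RPKM in Cop1-floxed and 6.68 ± 1.41 RPKM in wild-type T0 cells.

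**Figure D1:**
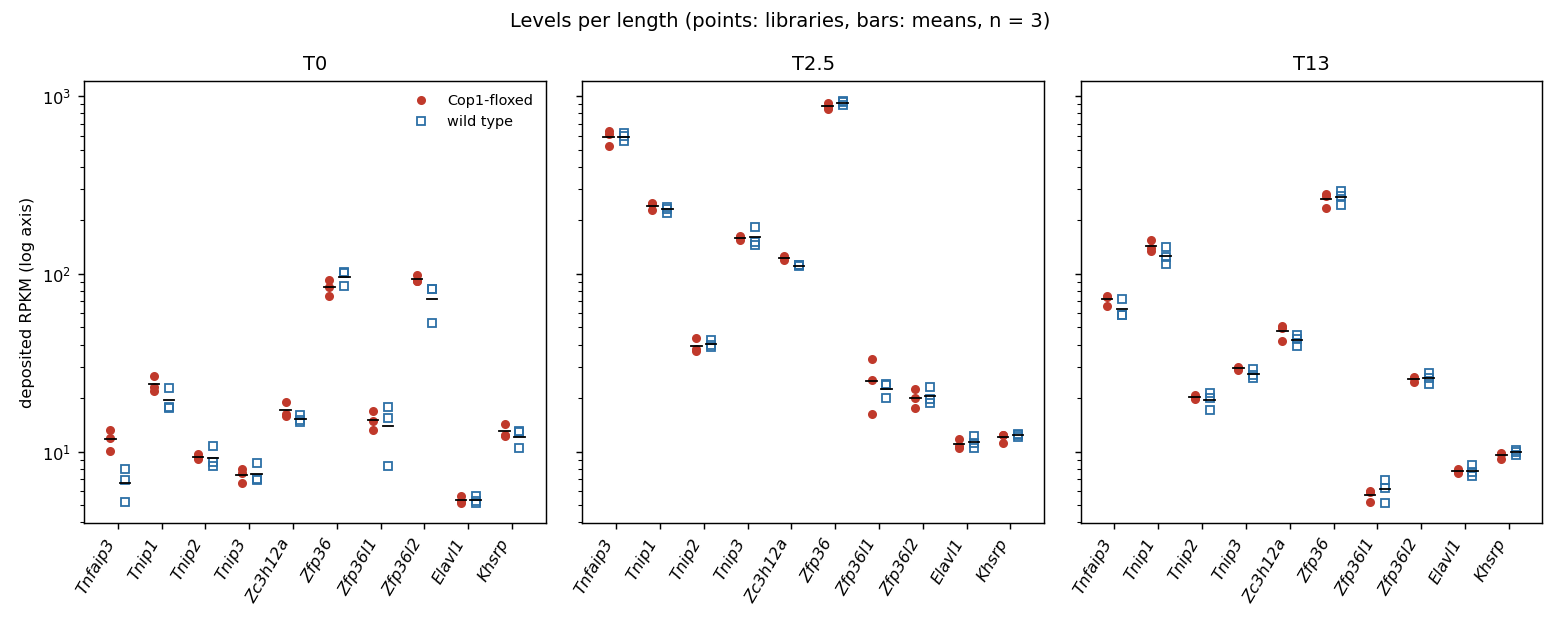
Deposited RPKM of each of the 10 genes (log axis) at T0, T2.5 and T13, with red circles for Cop1-floxed and blue squares for wild-type libraries and bars for group means (n = 3). Zfp36 and Tnfaip3 stand highest at T2.5, whereas Zfp36l2 and Zfp36 stand highest at T0.

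LPS changed this order within the first interval. At T2.5 Zfp36 led with 876 ± 35.9 RPKM in Cop1-floxed and 919 ± 23.6 RPKM in wild-type cells, followed by Tnfaip3 at 591 ± 57.3 and 591 ± 30.1 RPKM in the same groups (SD, n = 3 each). At T6 the level of Zfp36 was 1101 ± 109 RPKM in Cop1-floxed and 846 ± 83.3 RPKM in wild-type cells. At T9 Tnfaip3 was the highest of the 10, at 367 ± 61.8 RPKM in Cop1-floxed cells, where it overlapped Zfp36 at 336 ± 57.2 RPKM, and at 340 ± 21.0 RPKM in wild-type cells, where Zfp36 stood apart at 254 ± 10.3 RPKM. Zfp36l1 had the lowest mean of the 10 genes at T6, T9 and T13 in both genotypes. The plot of levels per length shows the start, the first LPS time and the end of this course.

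LPS raised 8 of the 10 genes at T2.5 in both genotypes. The A20 gene, the 3 ABIN genes, Regnase-1, tristetraprolin, Zfp36l1 and HuR rose, Zfp36l2 fell, and Khsrp did not pass, with counts scaled by TMM, which lines up the bulk of genes between libraries. With library totals the rise of Zfp36l1 was lost in both genotypes and Khsrp passed as lower in both. From T4 to T13 7 genes were higher and 3, Zfp36l1, Zfp36l2 and Khsrp, were lower than at T0 in both genotypes. With library totals, however, Elavl1 passed as lower at T9 in both genotypes and at T13 in wild-type cells. It was negative without passing at T13 in Cop1-floxed cells (adjusted p = 0.0779 by edgeR) and at T6 in wild-type cells (0.331). At T6 in Cop1-floxed cells it did not pass either. CPM levels above and below are scaled by TMM unless stated otherwise. Calls rest on edgeR's quasi-likelihood test with Benjamini-Hochberg adjustment over 15685 genes at 0.05. At T2.5 9 of 10 members were called in Cop1-floxed cells, where 57% of all genes tested were called, and 9 of 10 in wild-type cells, where 58.8% were called. At each later time all 10 were called. The background at the 4 later times in their order was 66.7%, 70.3%, 70.9% and 65.8% of all genes in Cop1-floxed cells and 67.9%, 70.5%, 70.1% and 67.3% in wild-type cells. Because most expressed genes passed, the size and the timing say more than the number of calls. The median log2 fold change of the 10 genes at T2.5 was 2.46 in Cop1-floxed and 2.47 in wild-type cells, against -0.01 and -0.06 over all genes tested in the same groups. With library totals in place of TMM the median of all genes moved to between -0.64 and -1.16 in the LPS comparisons, and changes are given relative to TMM.

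**Figure D2:**
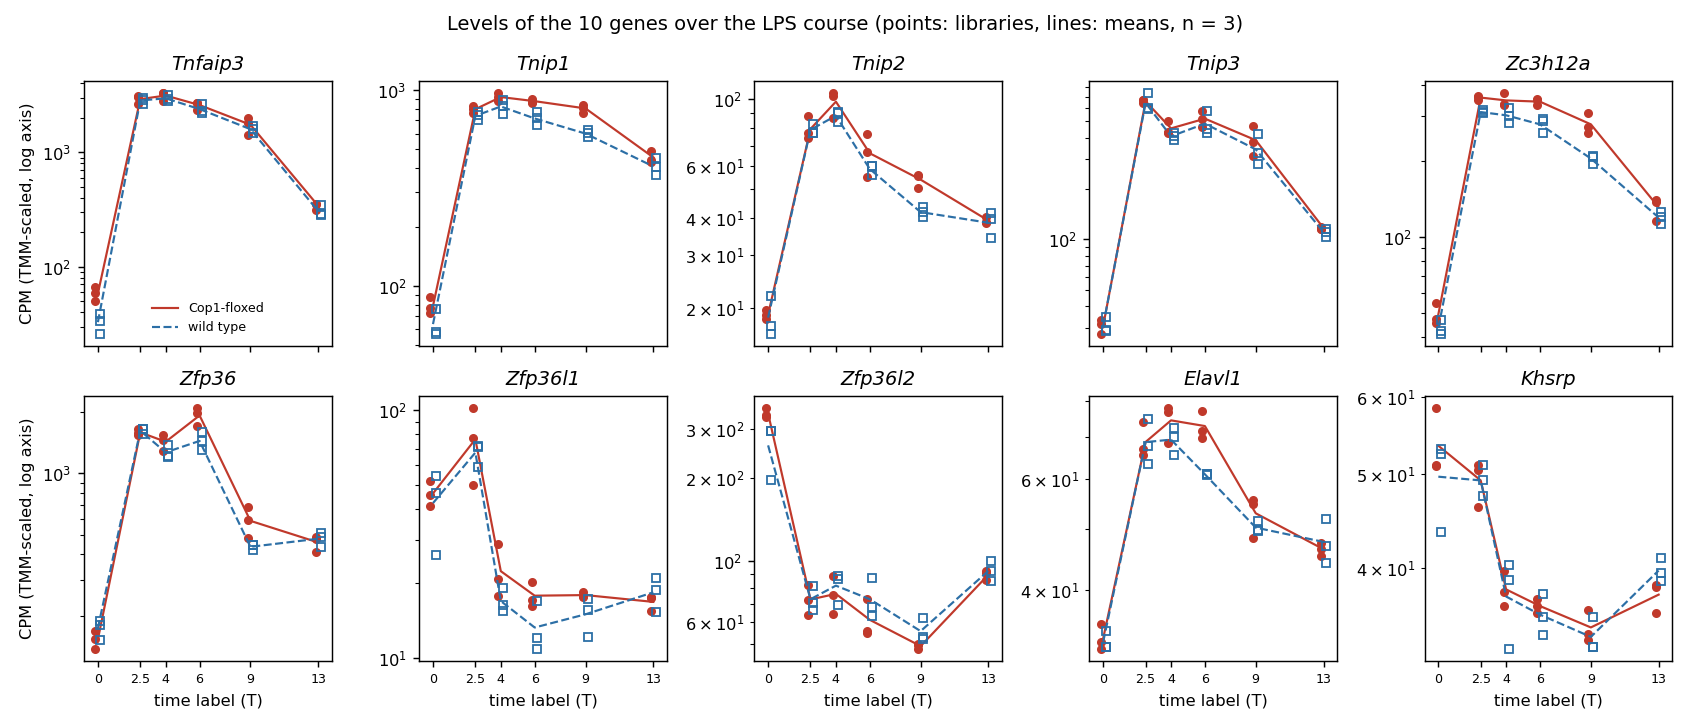
CPM (TMM-scaled, log axis) of each of the 10 genes against the time label, with red circles and solid lines for Cop1-floxed libraries and means and blue squares and dashed lines for wild-type libraries and means (n = 3 per group). Tnfaip3, the ABIN genes, Zc3h12a and Zfp36 rise at T2.5, Zfp36l2 falls from its T0 level, and Khsrp moves least.

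The A20 gene had the largest rise of the 10 at T2.5, and it rose from a higher untreated level in Cop1-floxed cells. In Cop1-floxed mice 1, 2 and 3 Tnfaip3 stood at 49.9, 66.1 and 59.2 CPM at T0, 3023, 2620 and 3114 at T2.5, 3294, 2818 and 3297 at T4, then 2725, 2341 and 2702 at T6, 2000, 1420 and 1810 at T9 and later 353, 312 and 357 at T13. In wild-type mice 1, 2 and 3 it stood at 39.0, 26.0 and 33.4 CPM at T0, 3011, 2666 and 2844 at T2.5, 3155, 2793 and 2948 at T4, then 2648, 2205 and 2310 at T6, 1703, 1476 and 1604 at T9 and later 344, 284 and 290 at T13. The genotypes overlapped at every LPS time but not at T0, and each of the 6 mice was highest at T4. The rise over T0 at T2.5 was 50-fold in Cop1-floxed cells (log2 5.64, SE 0.156, adjusted p = 1.03e-23) and 86.5-fold in wild-type cells (log2 6.43, SE 0.162, adjusted p = 9.71e-25). The decline was steepest between T9 and T13. At T6 relative to T4 the log2 change was -0.28 in Cop1-floxed and -0.31 in wild-type cells, without overlap of libraries. This did not pass edgeR's quasi-likelihood test (adjusted p = 0.105 and 0.0734 in the same groups). It passed in some other settings, among them edgeR with the mouse as a block (adjusted p = 0.0263 and 0.0132). Tnfaip3 fell by 0.57 on the log2 scale in Cop1-floxed and by 0.58 in wild-type cells at T9 relative to T6, and by 2.36 and 2.38 in the same groups at T13 relative to T9, all called. At T13 it was 5.83-fold above T0 in Cop1-floxed and 9.31-fold above T0 in wild-type cells, at 10.7% to 11.1% of its highest level in Cop1-floxed mice and 9.83% to 10.9% in wild-type mice.

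The ABIN genes rose less than Tnfaip3 and left their peaks at different speeds. Tnip1, for ABIN1, stood in Cop1-floxed mice 1, 2 and 3 at 72.6, 77.0 and 87.6 CPM at T0, 919, 966 and 880 at T4, 841, 813 and 765 at T9, and 489, 431 and 440 at T13. In wild-type mice 1, 2 and 3 it stood at 57.0, 76.5 and 57.9 CPM at T0, 826, 758 and 891 at T4, 622, 573 and 604 at T9, and 449, 404 and 370 at T13. Tnip1 was highest at T4 in all 6 mice and kept 44.6% to 53.3% of that level at T13 in Cop1-floxed mice and 41.5% to 54.4% in wild-type mice. Its log2 rise over T0 was 3.54 in Cop1-floxed and 3.69 in wild-type cells at T4, and 2.52 and 2.68 in the same groups at T13. The locus of Tnip1 overlaps another gene model, Gm12230, and with no stated strand setting reads of an overlap cannot be assigned with certainty. Tnip2, for ABIN2, rose 4.19-fold in Cop1-floxed and 4.27-fold in wild-type cells at T2.5, was highest at T4 in all 6 mice at 84.1 to 105 CPM, and fell again by T6, by 0.58 on the log2 scale in Cop1-floxed and 0.59 in wild-type cells. Tnip3, for ABIN3, was the steepest of the family, 21.5-fold above T0 in Cop1-floxed and 20.9-fold in wild-type cells at T2.5. It was highest at T2.5 in all 6 mice, at 641, 669 and 666 CPM in Cop1-floxed and 592, 605 and 737 CPM in wild-type mice 1, 2 and 3. From T2.5 to T4 it dropped by 0.53 on the log2 scale in Cop1-floxed and by 0.66 in wild-type cells, and at T13 relative to T9 by 1.73 and 1.63 in the same groups.

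Regnase-1 rose at T2.5 and, with TMM, held a plateau before it declined. With library totals it passed as lower at T4 relative to T2.5, by edgeR. The log2 change was -0.29 in Cop1-floxed (adjusted p = 0.00215) and -0.27 in wild-type cells (adjusted p = 0.00332). The median of all genes on that scale was -0.30 and -0.27 in the same groups. Zc3h12a stood in Cop1-floxed mice 1, 2 and 3 at 45.6, 47.5 and 54.9 CPM at T0, 358, 349 and 361 at T2.5, 371, 337 and 333 at T4, then 350, 347 and 332 at T6, 308, 272 and 257 at T9 and later 140, 116 and 137 at T13. In wild-type mice 1, 2 and 3 it stood at 41.4, 46.8 and 42.5 CPM at T0, 317, 311 and 308 at T2.5, 302, 283 and 324 at T4, then 287, 258 and 292 at T6, 208, 195 and 210 at T9 and later 125, 120 and 113 at T13. The Cop1-floxed libraries lay above all wild-type libraries at T2.5, T4, T6 and T9, and overlapped them at T0 and T13. Its rise over T0 was 7.22-fold in Cop1-floxed and 7.16-fold in wild-type cells at T2.5 and remained called at T13, at 2.66-fold and 2.74-fold in the same groups. Between T9 and T13 it fell by 1.09 on the log2 scale in Cop1-floxed and by 0.78 in wild-type cells, both called.

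The 3 genes of the tristetraprolin family followed 3 different courses. Zfp36 rose at T2.5 and dropped after T6, Zfp36l1 rose briefly (not with library totals) and then fell below its untreated level, and Zfp36l2 fell at once and stayed low. Zfp36 stood in Cop1-floxed mice 1, 2 and 3 at 154, 138 and 168 CPM at T0, 1584, 1538 and 1643 at T2.5, 1537, 1291 and 1458 at T4, then 1966, 2091 and 1712 at T6, 682, 482 and 590 at T9 and later 489, 409 and 476 at T13. In wild-type mice 1, 2 and 3 it stood at 153, 189 and 180 CPM at T0, 1652, 1559 and 1646 at T2.5, 1375, 1206 and 1222 at T4, then 1595, 1296 and 1435 at T6, 420, 445 and 443 at T9 and later 511, 485 and 437 at T13. The highest level came at T6 in 3 of 3 Cop1-floxed mice and at T2.5 in 3 of 3 wild-type mice. At T6 relative to T4 Zfp36 rose by 0.43 on the log2 scale in Cop1-floxed cells (SE 0.110, adjusted p = 0.00301), and the value in wild-type cells was 0.19 (adjusted p = 0.241). At T4 relative to T2.5 it fell by 0.35 in wild-type cells (adjusted p = 0.0132), and the value in Cop1-floxed cells was -0.15 (adjusted p = 0.324). The fall in wild-type cells was lost without wild-type mouse 2 or 3 (adjusted p = 0.0505 and 0.136), and with library totals Cop1-floxed cells passed too (log2 -0.40, adjusted p = 8.21e-04). The drop at T9 relative to T6 was the largest step of Zfp36 between LPS times, -1.72 in Cop1-floxed and -1.73 in wild-type cells. At T13 relative to T9 Zfp36 fell again in Cop1-floxed cells, by 0.35 (adjusted p = 0.00754), and the value in wild-type cells was 0.13 (adjusted p = 0.319). The libraries of T13 and T9 overlapped in Cop1-floxed cells, and the call was lost without Cop1-floxed mouse 1 or 3 (adjusted p = 0.184 and 0.0679) and with library totals (log2 -0.0166, adjusted p = 0.892), with which wild-type cells passed as higher (log2 0.31, adjusted p = 0.00583).

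Whether Zfp36 changed differently between T2.5 and T6 in the 2 genotypes was tested directly, with a contrast chosen after the data had been seen. The change was 0.44 higher on the log2 scale in Cop1-floxed than in wild-type cells (SE 0.155), which did not pass edgeR's quasi-likelihood test (adjusted p = 0.957). By edgeR 0 of 10 members passed this contrast, which called 0.0191% of all genes, and 2 members, Zfp36 and Elavl1, had an unadjusted p under 0.05. All 160 member values under the other settings, DESeq2 and limma included, also missed the threshold. The different times of the highest Zfp36 level in the plot of courses by mouse are thus a description of these 6 mice.

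**Figure D3:**
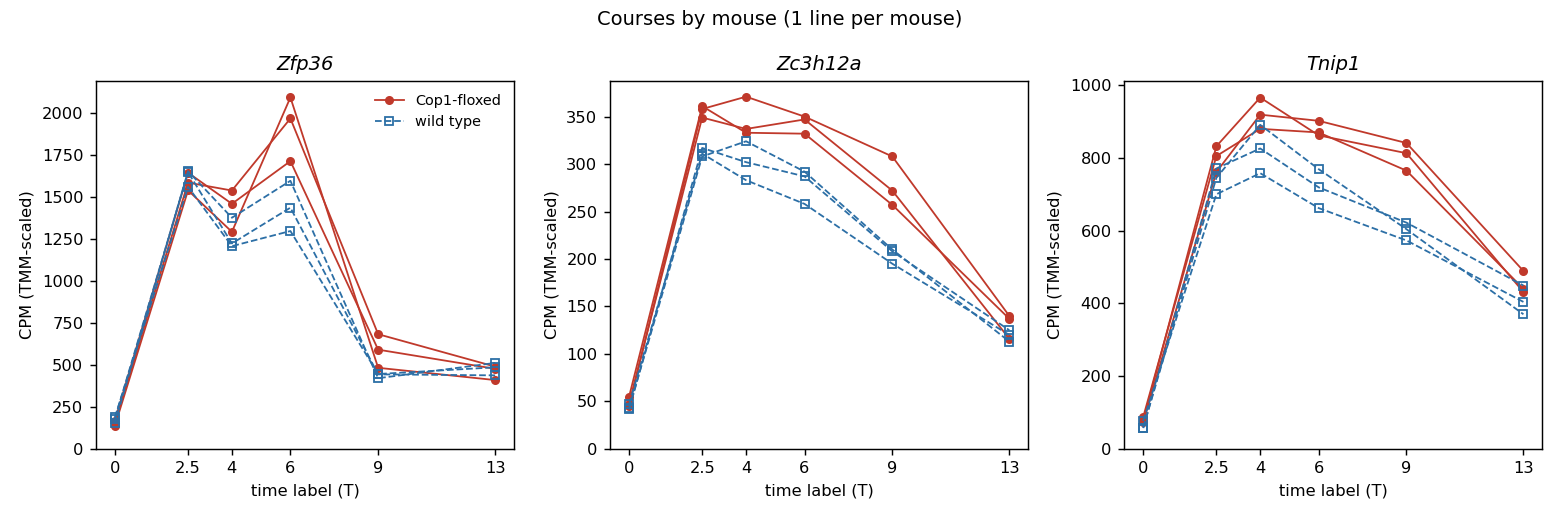
CPM (TMM-scaled) of Zfp36, Zc3h12a and Tnip1 against the time label, with 1 line per mouse, red circles for the 3 Cop1-floxed and blue squares for the 3 wild-type mice. Zfp36 is highest at T6 in the Cop1-floxed mice, at 1712 to 2091 CPM, and at T2.5 in the wild-type mice, at 1559 to 1652 CPM.

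Zfp36l1 was highest at T2.5 in all 6 mice, at 102, 50 and 77.0 CPM in Cop1-floxed and 71.8, 71.3 and 59.2 CPM in wild-type mice 1, 2 and 3. Its rise over T0 at T2.5 was 0.73 on the log2 scale in Cop1-floxed cells (SE 0.215, adjusted p = 0.00457) and 0.67 in wild-type cells (SE 0.215, adjusted p = 0.00799). At T0 it stood at 45.5, 41.2 and 51.7 CPM in Cop1-floxed and 46.5, 26.0 and 54.0 CPM in wild-type mice 1, 2 and 3, so the T2.5 and T0 libraries overlapped in Cop1-floxed but not in wild-type cells. With library totals the values were 0.0989 in Cop1-floxed and -0.0019 in wild-type cells (adjusted p = 0.702 and 0.995). The call was also lost without Cop1-floxed mouse 1 (log2 0.45, adjusted p = 0.155) in Cop1-floxed cells, and in wild-type cells without mouse 2 (0.35, adjusted p = 0.227) or its T0 library alone (0.42, adjusted p = 0.0768). The next step was its largest, -1.77 in Cop1-floxed and -1.99 in wild-type cells at T4 relative to T2.5. From T4 to T13 its libraries lay between 15.4 and 28.7 CPM in Cop1-floxed and between 10.9 and 21.1 CPM in wild-type cells, all below the libraries of T0. Zfp36l2 was the only member that fell at T2.5 with TMM, to 81.7, 63.9 and 72.2 CPM in Cop1-floxed mice 1, 2 and 3, against 330, 336 and 357 CPM at T0. In wild-type mice 1, 2 and 3 it stood at 70.4, 81.4 and 66.4 CPM at T2.5, against 295, 196 and 294 CPM at T0. No T2.5 library overlapped a T0 library of its genotype, and the log2 fold change was -2.23 in Cop1-floxed (SE 0.147, adjusted p = 2.26e-14) and -1.85 in wild-type cells (SE 0.145, adjusted p = 1.47e-12). Zfp36l2 was lowest at T9 in all 6 mice, at 48.2 to 49.9 CPM in Cop1-floxed and 52.2 to 62.1 CPM in wild-type mice. It recovered in part, by 0.86 in Cop1-floxed and 0.72 in wild-type cells at T13 relative to T9, both called.

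The HuR gene rose modestly at T2.5 and the KSRP gene fell modestly from T4 on. Elavl1 stood at 33.1, 35.3 and 32.3 CPM in Cop1-floxed mice 1, 2 and 3 at T0 and at 65.5, 73.9 and 67.0 CPM at T2.5, and at 32.5, 32.5 and 34.4 CPM in wild-type mice 1, 2 and 3 at T0 and 74.9, 63.5 and 67.9 CPM at T2.5. This was a 2.05-fold rise in Cop1-floxed and a 2.07-fold rise in wild-type cells. The later rises of Elavl1 depend on the scaling. Its log2 change over T0 at T13 was 0.47 in Cop1-floxed and 0.53 in wild-type cells with TMM, but -0.15 and -0.19 in the same groups with library totals, and the direction also turned at T9 in both genotypes and at T6 in wild-type cells. Khsrp was at 50.9, 51.0 and 58.4 CPM in Cop1-floxed mice 1, 2 and 3 at T0 and 51.0, 46.2 and 50.5 CPM at T2.5, and at 52.4, 43.6 and 53.0 CPM in wild-type mice 1, 2 and 3 at T0 and 51.0, 47.4 and 49.3 CPM at T2.5. These overlapped, with adjusted p = 0.204 in Cop1-floxed and 0.901 in wild-type cells. With library totals Khsrp passed as lower at T2.5, by log2 -0.75 in Cop1-floxed (adjusted p = 8.57e-10) and -0.68 in wild-type cells (adjusted p = 5.02e-09), where the median of all genes was -0.64 and -0.72 in the same groups. At T9 Khsrp was lower than at T0 by 0.62 on the log2 scale in Cop1-floxed and by 0.55 in wild-type cells, both called.

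Over the 4 steps between successive LPS times, 36 of 80 member tests passed and 5 of these were rises. With library totals 43 passed, 30 of them among these 36. At T4 relative to T2.5 4 of 10 members passed in Cop1-floxed cells, where 31.7% of all genes passed, and 4 of 10 in wild-type cells, where 30.7% passed. At T6 relative to T4 2 of 10 passed in Cop1-floxed cells (30% of all genes) and 1 of 10 in wild-type cells (24.7%), and Tnip2 was in both. At T9 relative to T6 5 of 10 passed in Cop1-floxed cells (16%) and 6 of 10 in wild-type cells (11.1%), all lower. The call of Tnip3 in Cop1-floxed cells, where libraries overlapped, was lost with library totals and without any 1 Cop1-floxed mouse (adjusted p = 0.0568 to 0.197). Other settings also lost Zc3h12a in Cop1-floxed cells and Elavl1 and Tnip3 in wild-type cells. Tnip2 in Cop1-floxed cells and Tnip1 and Zfp36l2 in wild-type cells passed in some other settings. At T13 relative to T9 8 of 10 passed in Cop1-floxed cells (55.6%), 7 of them lower, and 6 of 10 in wild-type cells (55.9%), 4 of them lower. In Cop1-floxed cells the fall of Elavl1 was lost without any 1 Cop1-floxed mouse (adjusted p = 0.0668 to 0.544 by edgeR). With library totals Elavl1 turned to log2 0.14 there, and the fall of Tnip2 was lost (log2 -0.12, adjusted p = 0.278). Zfp36l2 was higher at T13 than at T9 in both genotypes, and Khsrp in wild-type cells, by 0.23 on the log2 scale (SE 0.0795, adjusted p = 0.0170). The call of Khsrp was lost in 6 other settings, among them DESeq2 (adjusted p = 0.0545) and without wild-type mouse 3 (adjusted p = 0.0840).

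Several of the 10 genes were higher in Cop1-floxed than in wild-type cells, untreated at T0 or late in the course at T6 and T9. Of 60 member-by-time tests 9 passed, all higher in Cop1-floxed cells, in 6 genes. The A20 and ABIN1 genes passed at T0, Regnase-1, tristetraprolin and HuR at T6, and ABIN1, ABIN2, Regnase-1 and tristetraprolin at T9. The log2 fold changes ranged from -0.25 to 0.83, so the differences between genotypes were small beside the LPS rises. At T0 2 of 10 members passed, where 9.57% of all genes passed. At T6 3 of 10 passed, against 7.8% of all genes, and at T9 4 of 10 passed, against 10.4%. By edgeR 0 of 10 passed at T2.5, T4 and T13, where 3.9%, 4.86% and 3.1% of all genes passed in that order, and 1, 1 and 0 members had an unadjusted p under 0.05. DESeq2 made the same 9 calls over all times. With library totals, which put the median of all genes at -0.02 to -0.15, 3 of the 9 calls held, Tnfaip3 at T0 and Tnip1 and Zc3h12a at T9 (log2 0.71, 0.255 and 0.27), the other 6 values were 0.06 to 0.24, and Zfp36 at T0 passed as lower (log2 -0.30, adjusted p = 0.0462). With the 6 libraries of a time fitted alone 2 calls held, Tnip1 and Zc3h12a at T9. In 14 of the 60 pairs the Cop1-floxed libraries all lay above the wild-type libraries and in 2 all below. Over all genes tested and the same 6 times, 15.1% of gene-by-time pairs lay above and 9.38% below in this way.

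**Figure D4:**
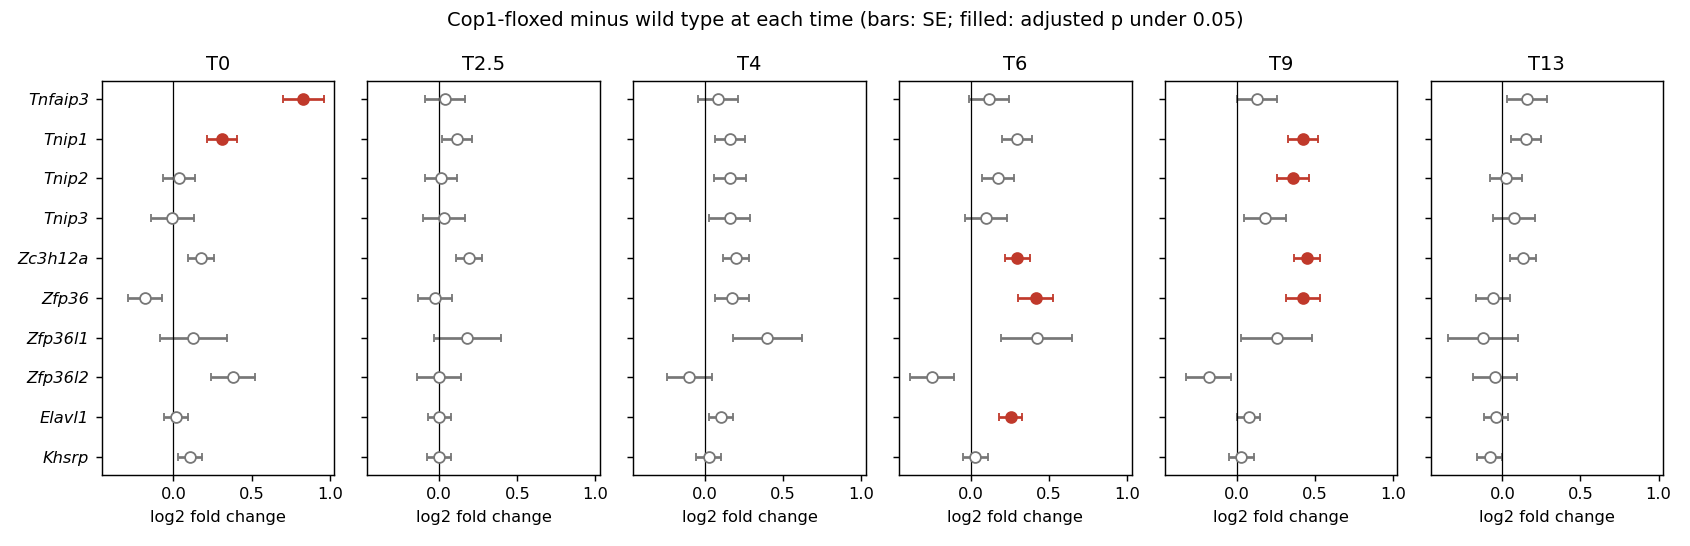
Log2 fold change of Cop1-floxed minus wild-type cells for each of the 10 genes at each time label, with bars for SE and filled red points for adjusted p under 0.05. The 9 filled points lie to the right of 0, at T0, T6 and T9.

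Tnfaip3 was the member with the largest difference between genotypes. In untreated cells it stood at 49.9, 66.1 and 59.2 CPM in Cop1-floxed mice 1, 2 and 3, against 39.0, 26.0 and 33.4 CPM in wild-type mice 1, 2 and 3. All Cop1-floxed values lay above all wild-type values, and the fold change was 1.78 (log2 0.83, SE 0.131, adjusted p = 8.11e-05). The call held in 16 of 17 other settings and was lost when the 6 libraries of T0 were fitted alone (log2 0.77, adjusted p = 0.125). Under LPS its log2 difference was 0.04 to 0.16, and none of the 5 passed. Tnip1 in untreated cells stood at 72.6, 77.0 and 87.6 CPM in Cop1-floxed mice 1, 2 and 3, against 57.0, 76.5 and 57.9 CPM in wild-type mice 1, 2 and 3. The value of wild-type mouse 2 fell within the Cop1-floxed range, and the call (log2 0.31, SE 0.0967, adjusted p = 0.0372) was lost in 8 of 17 other settings. The adjusted p was 0.0994, 0.131 and 0.377 without Cop1-floxed mice 1, 2 and 3, 0.134 and 0.178 without wild-type mice 1 and 3, and 0.0807 without the Cop1-floxed T9 library of mouse 2. Zfp36l2 at T0 did not overlap, at 330 to 357 CPM in Cop1-floxed and 196 to 295 CPM in wild-type libraries, but did not pass (log2 0.38, adjusted p = 0.0895). It passed without wild-type mouse 1 (adjusted p = 0.0345).

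At T6 Zfp36 stood at 1966, 2091 and 1712 CPM in Cop1-floxed mice 1, 2 and 3, against 1595, 1296 and 1435 CPM in wild-type mice 1, 2 and 3. The groups did not overlap (log2 0.42, SE 0.110, adjusted p = 0.0162). The call was lost without Cop1-floxed mouse 1 or 2 (adjusted p = 0.109 and 0.0555) and without wild-type mouse 2 or 3 (adjusted p = 0.132 and 0.104). Zc3h12a was at 350, 347 and 332 CPM in Cop1-floxed mice 1, 2 and 3, against 287, 258 and 292 CPM in wild-type mice 1, 2 and 3 (log2 0.30, SE 0.0826, adjusted p = 0.0217). It did not overlap either, and the call was lost without Cop1-floxed mouse 1, 2 or 3 (adjusted p = 0.145, 0.0897 and 0.0915), without wild-type mouse 2 or 3 (0.157 and 0.0694) and without the Cop1-floxed T9 library of mouse 2 (0.0541). Elavl1 was at 69.9, 77.2 and 71.7 CPM in Cop1-floxed mice 1, 2 and 3, against 61.0, 61.3 and 61.1 CPM in wild-type mice 1, 2 and 3. These did not overlap (log2 0.26, SE 0.0757, adjusted p = 0.0335), but the call held in 5 of 17 other settings only and was lost without any 1 of the 6 mice (adjusted p = 0.0685 to 0.184) and without the Cop1-floxed T9 library of mouse 2 (0.0625). With library totals its log2 difference was 0.06. Tnip1 at T6 did not overlap and did not pass (log2 0.29, adjusted p = 0.0560), and it passed without the wild-type T0 library of mouse 2 (adjusted p = 0.0135).

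At T9 the calls included both ABIN1, which had also passed at T0, and ABIN2. Zc3h12a stood at 308, 272 and 257 CPM in Cop1-floxed mice 1, 2 and 3, against 208, 195 and 210 CPM in wild-type mice 1, 2 and 3. The lowest Cop1-floxed value was above the highest wild-type value, the fold was 1.37 (log2 0.45, SE 0.0828, adjusted p = 6.30e-04), and the call held in all 17 other settings (adjusted p = 9.11e-06 to 0.0348). Tnip1 stood at 841, 813 and 765 CPM in Cop1-floxed mice 1, 2 and 3, against 622, 573 and 604 CPM in wild-type mice 1, 2 and 3. It did not overlap (log2 0.43, SE 0.0960, adjusted p = 0.00382), and the call was lost without Cop1-floxed mouse 1 (adjusted p = 0.0552). Tnip2 stood at 55.7, 55.3 and 50.5 CPM in Cop1-floxed mice 1, 2 and 3, against 43.5, 42.0 and 40.2 CPM in wild-type mice 1, 2 and 3. It did not overlap (log2 0.36, SE 0.104, adjusted p = 0.0219), and the call was lost without Cop1-floxed mouse 1, 2 or 3 (adjusted p = 0.117, 0.0865 and 0.0603), without wild-type mouse 2 or 3 (0.0538 and 0.114) and without the Cop1-floxed T9 library of mouse 2 (0.127). Zfp36 stood at 682, 482 and 590 CPM in Cop1-floxed mice 1, 2 and 3, against 420, 445 and 443 CPM in wild-type mice 1, 2 and 3. It did not overlap (log2 0.42, SE 0.110, adjusted p = 0.0122), and the call was lost without Cop1-floxed mouse 1 or 3 (adjusted p = 0.209 and 0.0630) or wild-type mouse 3 (0.0701).

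Tnip3, Zfp36l1, Zfp36l2 and Khsrp passed at no time. Khsrp had log2 differences of -0.08 to 0.11, with SE of 0.0783 to 0.0800, and Zfp36l1 of -0.13 to 0.42, with SE of 0.214 to 0.229. Zfp36l1 was thus the least precisely measured of the 10. Markers of other cell types also differed between genotypes, both at times with and at times without member calls. Of 14 stromal and endothelial markers tested, 10, 11, 11, 9, 9 and 9 were lower in Cop1-floxed cells at T0, T2.5, T4, T6, T9 and T13, with none of the markers at 0. Their summed level was 148 to 235 CPM in Cop1-floxed and 444 to 1064 CPM in wild-type libraries at T0, 255 to 358 CPM in Cop1-floxed and 703 to 1431 CPM in wild-type libraries at T6, and 314 to 386 CPM in Cop1-floxed and 687 to 1308 CPM in wild-type libraries at T9. At T2.5 and T4, where no member passed, it was 174 to 235 and 184 to 258 CPM in Cop1-floxed libraries, against 458 to 1020 and 539 to 1132 CPM in wild-type libraries. Of 14 macrophage markers 4, 1, 1, 4, 6 and 0 were higher at the 6 times in that order, with a summed level of 29758 to 32046 CPM in Cop1-floxed and 23581 to 25394 CPM in wild-type libraries at T9. At T2.5 and T4 this sum was 33825 to 35084 and 33801 to 35487 CPM in Cop1-floxed libraries. Wild-type libraries held 27710 to 29795 and 27624 to 28644 CPM at these 2 times. The sums did not overlap at T0 or T6 either, but overlapped at T13. Of 9 dendritic cell markers 4, 1, 1, 2, 3 and 1 were lower at these times. Of 13 granulocyte and progenitor markers 4 were lower at T0, 0 passed at T2.5 and T4, 4 were higher at T6, 2 were higher and 1 lower at T9, and 2 were higher at T13. The part of these markers in the results was not tested.

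Summing the 6 libraries of each mouse, which uses each mouse once, gave 1 of 10 members called, against 7.33% of the 17182 genes tested. In such a sum the libraries with most reads of a gene weigh most. Of 348002 summed Tnfaip3 reads of Cop1-floxed mouse 1, for example, 2678 came from T0. The sum is therefore no test of the calls at T0. The member called was Zc3h12a. Scaled by the summed library totals, without TMM, it stood at 233, 223 and 222 CPM in Cop1-floxed mice 1, 2 and 3. In wild-type mice 1, 2 and 3 it stood at 197, 209 and 207 CPM on the same scale, without overlap. With TMM the log2 fold change was 0.20 (SE 0.0436, adjusted p = 0.0359 by edgeR), and with library totals the call was lost. The call was lost without any 1 of the 6 mice except wild-type mouse 2 (adjusted p = 0.0541 to 0.139), and adding the mouse number as a block gave an adjusted p of 0.151. Tnip1 was at log2 0.17 (adjusted p = 0.0561) and Zfp36 at 0.13 (adjusted p = 0.145).

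The LPS responses of 2 members came nearest to differing between genotypes. An F test over the 5 differences of LPS response called 0 of 10 members by edgeR, where 0.599% of all genes passed, and 2 had an unadjusted p under 0.05, Zfp36 (adjusted p = 0.103) and Tnfaip3 (adjusted p = 0.112). Libraries of the same mouse deviated together, and with the mouse as a block both passed, at adjusted p = 0.00411 for Tnfaip3 and 0.0235 for Zfp36. Both also passed with DESeq2 (adjusted p = 0.00832 and 0.0134 for Tnfaip3 and Zfp36) and with limma-voom and a correlation within mice (0.0130 and 0.0323). For Tnfaip3 the rise over T0 was smaller in Cop1-floxed than in wild-type cells by 0.67 to 0.79 on the log2 scale at all 5 LPS times, which share the T0 libraries in which Cop1-floxed cells were higher. The T2.5 term alone passed (log2 -0.79, SE 0.182, adjusted p = 0.0383), as 1 of 10 members against 0.408% of all genes. For Zfp36 the rise was larger in Cop1-floxed cells by 0.60 at T6 (adjusted p = 0.111) and 0.61 at T9 (adjusted p = 0.0543). The test of the whole course passed for Zfp36 without the Cop1-floxed T9 library of mouse 2 (adjusted p = 0.0323).

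Genes that work with the 10 members were described from lists, by counts and medians. Of all genes tested, 29% were higher and 28% lower at T2.5 in Cop1-floxed cells and 28.8% higher and 30% lower in wild-type cells, with medians of -0.01 and -0.06 in the same groups. In the list of A20 partners and linear ubiquitin enzymes, 19 of 26 rose and 2 fell at T2.5 in Cop1-floxed cells, and 20 rose and 3 fell in wild-type cells. The median log2 fold change of this list was 0.56 in Cop1-floxed and 0.73 in wild-type cells. In wild-type cells at T2.5 these included Malt1, a paracaspase that cuts A20, with a log2 rise of 4.60, the inhibitor of apoptosis protein Birc3 with 3.09, and Bcl10, a partner of Malt1, with 1.58. Of 16 genes of the p38 and MK2 pathway, which phosphorylates tristetraprolin, 13 rose and 0 fell at T2.5 in either genotype, among them in wild-type cells the kinase gene Mapkapk2 with 3.03 and the phosphatase gene Dusp1 with 3.37. Between genotypes 5 of these 16 were higher in Cop1-floxed cells at T9, where 10.4% of all genes passed in either direction, with a median of 0.22 against 0.02 over all genes, and 0 passed at T13. Of 27 other RNA-binding proteins of AU-rich or stem-loop elements 17 rose and 4 fell at T2.5 in either genotype, led in wild-type cells by Arid5a, which counters Regnase-1, with 4.56.

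The general decay machinery had medians near those of all genes. Of 51 deadenylation, decapping and exosome genes 12 rose and 20 fell at T2.5 in Cop1-floxed cells, and 13 rose and 22 fell in wild-type cells, with medians of -0.09 and -0.14 in the same groups. The decapping enzyme gene Dcp2 was the clearest rise of this list in wild-type cells, at log2 2.71. Of 42 mRNAs reported as targets of these regulators 37 rose and 3 fell at T2.5 in either genotype, with medians of 4.70 in Cop1-floxed and 4.93 in wild-type cells. Between genotypes 16 target mRNAs were higher and 4 lower in Cop1-floxed cells at T0, with a median of 0.38 against 0.03 over all genes, 11 higher and 2 lower at T6 and 11 higher and 6 lower at T9, where 9.57%, 7.8% and 10.4% of all genes passed in that order. At T2.5 and T4 0 and 1 were higher and 3 lower at both times, and at T13 4 were higher and 2 lower. Of all genes, 3.9%, 4.86% and 3.1% passed at these 3 times in that order. In the sums over the course the cytokine genes Csf3 and Ccl7 were higher in Cop1-floxed cells, by log2 1.14 and 0.70, and Fos and Vegfa lower, by log2 -0.55 and -1.33. How far the members act on these mRNAs was not measured.

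Across the 12 group means 6 members had a course close to that of Tnfaip3 and 3 did not. The correlation of log2 CPM with Tnfaip3 was 0.99 for Zc3h12a, 0.99 for Tnip3, 0.96 for Tnip1, 0.95 for Tnip2 and Elavl1 and 0.92 for Zfp36, but -0.88 for Zfp36l2, -0.51 for Khsrp and -0.21 for Zfp36l1. Zfp36l1 was instead most like Khsrp, at 0.92, and its correlation with Zfp36l2 was 0.42. Among 8424 genes compared in the same way, the courses most like Tnfaip3 were those of Plek, Gadd45b and Dmtf1 (0.9984, 0.9979 and 0.9972), and those most like Zc3h12a were Ccnl1, Plek and Gadd45b (0.9955, 0.9937 and 0.9929). For Zfp36 the nearest was the member Elavl1 (0.9802), before Junb (0.9754) and Sertad1 (0.9733). For Zfp36l2 the nearest were Hira, Adprhl2 and Nop9 (0.9827, 0.9801 and 0.9746). The 12 points share mice, libraries and scaling, so these values are descriptions.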

How the data were processed

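Polyadenylated RNA was sequenced in 36 libraries. Values in the deposited count file are, per the file headers, whole numbers of reads that aligned uniquely, per Entrez gene model. The RPKM values were adjusted by the authors with size factors, as the file headers say. A deposited list of gene model sizes and symbols, an other kind of value, gave the symbols, and Rfwd2 was read as Cop1. The submitters' processing notes name GSNAP and the build GRCm38. The sources used here give no versions, annotation or strand setting. Unique alignment can undercount near-identical gene copies.

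The main test was edgeR 4.0.16 in R 4.3.3 (filterByExpr, TMM, quasi-likelihood) in 1 model of the 12 groups, with Benjamini-Hochberg adjustment over 15685 genes and a threshold of 0.05. SE is the size of the log2 fold change divided by the root of its F statistic. Alternatives used DESeq2 1.42.0 and limma 3.58.1 (voom, and log2(RPKM + 1) or log2(RPKM + 0.1)), other scaling, no filter, blocks and left-out mice or libraries. RPKM served to order genes, on group means ± SD.

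The labels name the individual, so numbers pair libraries of 1 mouse. Deviations from group means correlated at 0.173 on average within a mouse (90 pairs) and at -0.087 between mice of a genotype (180 pairs). Across genotypes the same number gave -0.050 (18 pairs), so it is no pair there. No 2 replicates agreed within sampling noise (chi-square per degree of freedom at least 8.50 over 36 pairs).

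The text names all 10 members, Cop1, the 3 genes with the most similar course for each of Tnfaip3, Zc3h12a, Zfp36 and Zfp36l2 (mean of at least 5 CPM, prior count 2), and up to 4 genes of each list by adjusted p. Members and lists were chosen with earlier results of these data known. Promoter windows come from RefSeq (GRCm38.p6), 3′ regions from GENCODE M21, with positions counted from 1. The 3′ region of 1 member is not reported here.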

Additional observations from a re-analysis of the deposited data

Results flagged for a closer look

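The response of Tnfaip3 to LPS at T2.5 differed between genotypes, by -0.79 on the log2 scale (Cop1-floxed minus wild type) in a test of the difference itself, edgeR's quasi-likelihood test of the interaction term (SE 0.182, adjusted p = 0.0383). Tnfaip3 rose 50-fold in Cop1-floxed and 86.5-fold in wild-type cells, in 3 of 3 mice each. The term passed in 10 of 16 other settings. It was lost without Cop1-floxed mouse 2 or 3 (adjusted p = 0.269 and 0.186), without wild-type mouse 2 or 3 (0.133 and 0.298), without the wild-type T0 library of mouse 2 alone (log2 -0.65, 0.133) and on log2(RPKM + 1) (0.0769). With the mouse as a block it was -0.82 (adjusted p = 0.00190). The T0 libraries differed in the opposite direction, at 58.4 ± 8.13 CPM in Cop1-floxed and 32.8 ± 6.49 CPM in wild-type cells (SD, n = 3 each), while T2.5 stood at 2919 ± 263 CPM in Cop1-floxed and 2840 ± 172 CPM in wild-type cells.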

How the results depend on the processing

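The LPS calls of members stayed at 47 to 49 of 50 in Cop1-floxed and 48 to 49 of 50 in wild-type cells, the step calls at 31 to 43 of 80, and the Cop1 calls at 5 to 6 of 6. The genotype calls were 9 in the model of all libraries, 4 with library totals (3 of them higher, the other Zfp36 at T0, log2 -0.30, adjusted p = 0.0462), 2 with each time fitted alone, 5 without the Cop1-floxed T9 library of mouse 2, 10 without the wild-type T0 library of mouse 2, and 2 to 8 with 1 mouse left out. The F test over the LPS responses called 0 members, but 1 without the filter on low counts, 2 with DESeq2, 2 with limma-voom, 1 without the Cop1-floxed T9 library of mouse 2, and 0 with 1 mouse left out. The summed comparison called 1 member, but 2 with the size factors of DESeq2, without a filter or with DESeq2, 0 with library totals, and 0 to 1 with 1 mouse left out.

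With library totals 8 values turned their direction. For Elavl1 in Cop1-floxed cells the log2 value became -0.29 at T9 and -0.15 at T13 relative to T0 and 0.14 at T13 relative to T9. For Elavl1 in wild-type cells it became -0.0803, -0.29 and -0.19 at T6, T9 and T13 relative to T0 and -0.21 at T4 relative to T2.5, and for Zfp36l1 in wild-type cells -0.0019 at T2.5 relative to T0. With library totals the median of all genes moved too, to between -0.64 and -1.16 in the comparisons with T0. It was -0.27 at T4 relative to T2.5 in wild-type cells and 0.31 at T13 relative to T9 in Cop1-floxed cells. Why the scalings differ was not tested.

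With the individual mouse as a block, the F test called 2 members, the steps 39 of 80, and the LPS calls remained 49 in each genotype. With the replicate number as a block, the genotype calls were 9 and the summed calls 0. The block changed no other count. Each member had at least 300 reads in every library, and each group held 3 mice.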
